A study of Mus musculus with 12 samples.

Results

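The hypertrophic and resting compartments are the ends of chondrocyte maturation in the E15.5 forelimb zeugopod, the segment of the radius and ulna. Gene expression in WT hypertrophic chondrocytes was compared with that in WT resting chondrocytes over 6 RNA-Seq libraries, replicates 1 to 3 of each compartment, of the 12 in the series. Of 36186 gene rows, the 10096 that reached 5 NRPKM in 3 or more of these 6 libraries were tested. NRPKM are RPKM values (reads scaled to transcript length and library depth) that the authors normalized further between libraries. All 6 libraries came from wild type embryos on a mixed 129/CD-1 background, taken at E15.5 by laser capture microdissection (LCM), and the labels name the hypertrophic zone hyperproliferative. The captured areas were mainly chondrocytes with some flanking perichondrium, so that in these bulk samples fewer cells of a type and less RNA per cell cannot be told apart. Replicates were described as independent sets, but whether each is a separate embryo is not stated in the sources used here. By *Xist* and Y-linked genes replicate 2 differed in sex from replicates 1 and 3, so it came from another embryo or embryos. *P* values measure the spread between these libraries, which may be technical in part. The 3 WT proliferative libraries of the same stage are given beside the values as the compartment in between, without a test.

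Long bones form from a cartilage model. Resting chondrocytes at its ends secrete parathyroid hormone-related protein (PTHrP, *Pthlh*), feed the columns of flat proliferating cells and keep the SOX9-driven matrix of type II collagen and aggrecan. Cells that leave the columns pass through a prehypertrophic state with *Ihh* and the PTHrP receptor, swell, switch to type X collagen under *Runx2* and *Mef2c*, and mineralize their matrix. The oldest cells make matrix-degrading enzymes where vessels, osteoclasts and osteoblasts enter.

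The effective depth behind the values, read from rows worth a single read, was 2400000 to 2960000 reads in the resting and 2340000 to 3240000 in the hypertrophic libraries. The scaling between libraries enters this measure, so it is not a count of reads. Hypertrophic replicate 1 stood apart from the other libraries of its group. Over the genes tested, hypertrophic replicates 2 and 3 lay a distance of 0.51 apart (root mean square of log2 differences), and replicate 1 lay 0.92 from replicate 3 and farther still from replicate 2. Replicate 1 lay 0.92 from the resting mean, 0.92 from the mean of replicates 2 and 3, and 0.63 from the proliferative mean, where each proliferative library lay 0.60 to 0.64 from the mean of the other two. Of 1704 single-exon sensory receptor and keratin-associated protein rows, 31.5% were above 0 in replicate 1, against 10.9% and 7.04% in replicates 2 and 3. The share was 9.68% to 20.4% in the resting and 21.8% to 31.4% in the proliferative libraries. Replicate 2 of each compartment was male and the others female by *Xist* and Y-linked genes. The part of these library differences in the results was not tested, and levels in the hypertrophic libraries are given replicate by replicate, so that replicate 1 can be read apart.

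With unadjusted *P* up to 0.05 and FC of at least 2, 1239 of the 10096 genes differed (12.3%). Of these, 587 (5.81% of the genes tested) were higher and 652 (6.46%) lower in hypertrophic chondrocytes, and 91 and 84 of them differed at least 10-fold on the log2(NRPKM + 0.1) scale. An adjusted *P* under 0.05 (limma, Benjamini-Hochberg) was reached by 784 genes (7.77%), of which 398 (3.94%) were higher and 386 (3.82%) lower. All 3 hypertrophic libraries lay above all 3 resting libraries for 1480 genes and below them for 1782, together 32.3% of the genes tested, and 1132 of the 1239 genes were separated in this way. With 3 libraries against 3, the smallest *P* of an exact two-sided permutation test is 0.1. For 1007 of the 1239 genes (81.3%) the proliferative mean fell within the span of the resting and hypertrophic means, and for 42.1% of all genes tested. The 1239 genes were chosen for a gap between these same means. Part of this contrast, and of the separation of 1132 of them, was therefore set by that choice.

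Without replicate 1, 1819 genes passed (18%), 938 higher (9.29%) and 881 lower (8.73%), and 2638 had an adjusted *P* under 0.05 (26.1%). Of the 938, 607 (64.7%) were above all 3 resting libraries in replicate 1, where 29.6% of all genes tested were, and of the 881, 642 (72.9%) were below them, where 35.7% of all genes were. On a scale with 0 at the resting mean and 1 at the mean of replicates 2 and 3, the median position of replicate 1 was 0.42 for the higher and 0.39 for the lower genes. The same resting libraries entered both measures. The quartiles were 0.06 and 0.76 for the higher genes and 0.16 and 0.66 for the lower. Replicate 1 lay at or beyond the mean of replicates 2 and 3 for 98 of the 938 and 81 of the 881 genes, and at or short of the resting mean for 202 and 138.

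**Figure D1:**
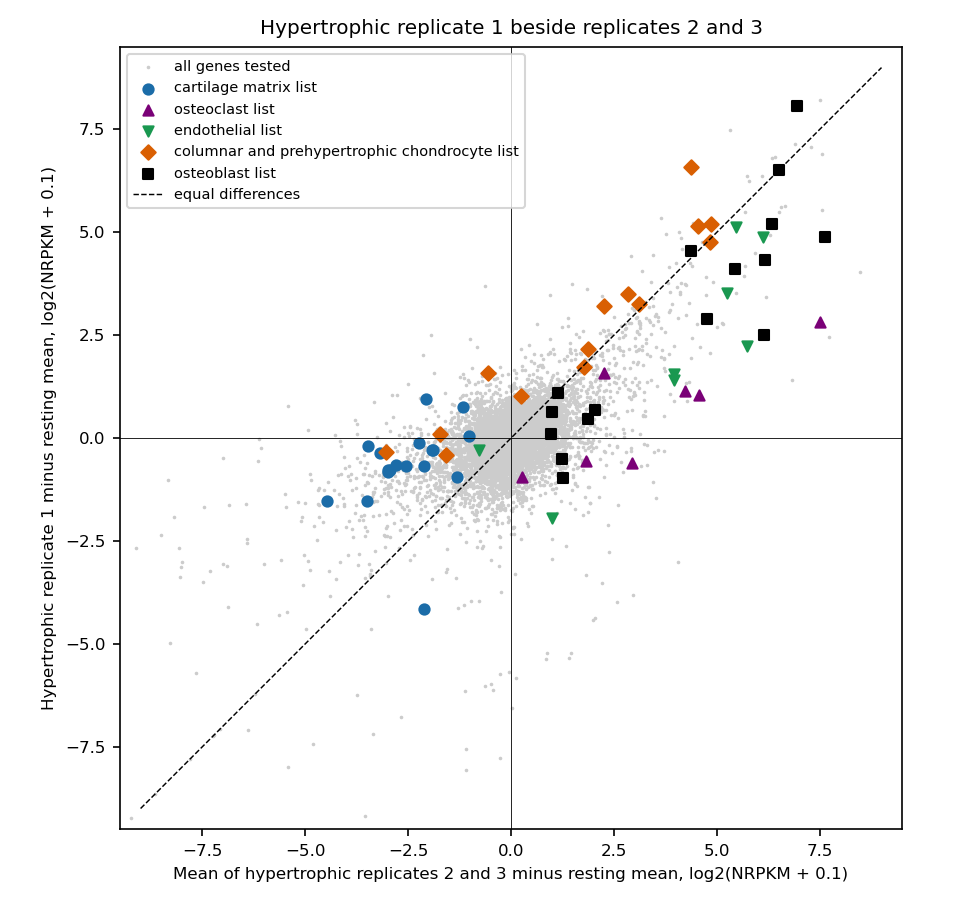
Difference from the resting mean in hypertrophic replicate 1 (y axis) against the mean of hypertrophic replicates 2 and 3 (x axis), both as log2(NRPKM + 0.1), for the 10096 genes tested. Each dot is a gene and coloured symbols are list members tested. Columnar and prehypertrophic genes lie near or above the dashed line of equal differences, whereas most cartilage matrix, osteoclast and endothelial genes lie near 0 on the y axis or well short of the line.

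Of 18 genes tested from a list of 20 hypertrophic chondrocyte genes, 10 rose and 1 fell, and their median log2 fold change was 1.92 (2.51 without replicate 1). Over all genes tested it was -0.01 (0.02 without replicate 1). Of all genes tested 5.81% rose and 6.46% fell, shares to set beside each list count here and below. The 10 that rose had all 3 hypertrophic libraries above all 3 resting libraries, 7 did not pass, and 2 of the 18 met the filter through one group alone. The bone sialoprotein gene *Ibsp*, which encodes a protein that binds mineral, was the first by size of rise among the genes chosen for it. It was at 6.33, 4.99 and 6.60 NRPKM in the 3 resting libraries, at 170.0, 82.2 and 278 in the proliferative and at 718, 968 and 1331 in the hypertrophic. The groups were far apart, with replicate 1 the lowest of its group, and the log2 fold change was 7.34 ± 0.27 (SE) with an adjusted *P* of 7.6e-05 (limma). *Alpl*, the alkaline phosphatase that frees phosphate for mineral, was at 1.61, 0.662 and 0.466 NRPKM in resting and 121, 122 and 162 in hypertrophic libraries (7.21 ± 0.41 in log2, adjusted *P* = 0.000516). *Col10a1*, the type X collagen gene that defines the hypertrophic zone, was at 1.86, 5.79 and 3.62 NRPKM in resting and 264, 166 and 221 in hypertrophic libraries (5.93 ± 0.41, adjusted *P* = 0.0011), again without overlap and highest in replicate 1. *Col10a1* lies within the gene *Nt5dc1*, and as the use of strand is not given in the sources used here, overlapping genes cannot be told apart from each other. The same holds for *Phospho1* with *Abi3* and *Zfp652*, *Runx2* with *Supt3*, *Ostn* with *Gm15970* and *Tnfaip2* with *Gm266*.

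*Phospho1*, a phosphatase that supplies phosphate within matrix vesicles, was listed at 0 in all 3 resting libraries and at 11.3, 7.09 and 9.89 NRPKM in the hypertrophic, at least 14.4-fold higher than the value of 3 reads in a resting library, with an adjusted *P* of 4.61e-05. It and *Ostn*, below, were the only genes tested at 0 in all 3 resting libraries. *Smpd3*, a sphingomyelinase needed for cartilage mineral, rose from 4.05, 3.62 and 5.64 NRPKM to 168, 84.1 and 108 (adjusted *P* = 0.0008). Its proliferative libraries, at 80.5, 134 and 161 NRPKM, already lay within the hypertrophic range or close to it. Not every gene of the process moved. *Enpp1*, which makes the mineral inhibitor pyrophosphate, was at 23.6, 60.6 and 66.8 NRPKM in resting and 27.8, 60.5 and 65.1 in hypertrophic libraries, and the phosphate importer *Slc20a1* at 12.6 to 17.0 NRPKM in resting and 8.14, 15.51 and 14.6 in hypertrophic libraries, both overlapping. *Ank*, a pyrophosphate exporter, was at 4.96, 6.43 and 6.34 NRPKM in resting libraries, 3.65 in hypertrophic replicate 1 and as high as 51.6 and 54.8 in the other two, and did not pass with all 6 libraries (adjusted *P* = 0.28 with all 6 libraries and 0.000377 without it).

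The prehypertrophic list stood highest in replicate 1. Of 14 tested, 9 rose and 2 fell, 2 of the 14 met the filter through one group alone, and the list's median difference from the resting mean was 2.70 in replicate 1, 1.94 in replicate 2 and 2.31 in replicate 3. *Ihh*, the hedgehog ligand that sets the pace of the growth plate, was at 0.783, 0.275 and 0.517 NRPKM in resting and 20.1, 27.0 and 40.5 in proliferative libraries. In the hypertrophic it reached 56.3 NRPKM in replicate 1 and 9.54 and 15.3 in replicates 2 and 3 (5.11 ± 0.67, adjusted *P* = 0.0086), so that replicate 1 stood above every other library and replicates 2 and 3 below all 3 proliferative. *Pth1r*, the receptor for PTHrP, was also highest in replicate 1, with 16.1 to 18.4 NRPKM in resting, 158 in replicate 1 and 73.1 and 90.9 in replicates 2 and 3 (adjusted *P* = 0.006).

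*Runx2* was at 41.1, 27.7 and 23.2 NRPKM in resting and 135, 102 and 115 in hypertrophic libraries (1.97 ± 0.25, adjusted *P* = 0.0086). *Mef2c*, which acts with *Runx2* to switch on type X collagen, was at 10.4, 7.46 and 12.5 NRPKM in resting and 112, 66.8 and 76.8 in hypertrophic libraries (3.06 ± 0.28, adjusted *P* = 0.0027). *Sp7* (osterix), required for osteoblasts, was at 10.9, 1.46 and 5.64 NRPKM in resting and 126, 112 and 154 in hypertrophic libraries (4.81 ± 0.67, adjusted *P* = 0.01). For all 3 factors every hypertrophic library was above every resting library. *Dlx5* and *Dlx6*, linked homeobox genes, also rose. *Dlx5* was at 5.84 to 15.4 NRPKM in resting and 82.6, 81.7 and 66.2 in hypertrophic libraries (adjusted *P* = 0.0064), and *Dlx6* at 0 to 0.389 NRPKM in resting and 9.87, 9.42 and 6.58 in hypertrophic libraries (adjusted *P* = 0.0069). *Panx3*, a channel protein of maturing chondrocytes, was at 21.1, 7.02 and 6.02 NRPKM in resting and 344, 235 and 221 in hypertrophic libraries, where the proliferative had 186, 294 and 248, so nearly all of its rise was already present in the proliferative zone. *Runx3* did not follow *Runx2*. It had 39.4, 24.1 and 13.9 NRPKM in resting and 70.6 in replicate 1 but 14.2 and 18.1 in replicates 2 and 3 (adjusted *P* = 0.9). Of the hedgehog targets, *Hhip* rose (from 3.52–10.3 to 20.04, 15.4 and 27.7 NRPKM, adjusted *P* = 0.052), *Ptch1* was at 73.0 to 93.6 NRPKM in resting and 171, 90.3 and 109 in hypertrophic libraries with overlap (adjusted *P* = 0.29), and *Gli1* passed as lower (23.6, 38.8 and 29.5 against 22.3, 9.57 and 10.2 NRPKM, adjusted *P* = 0.098).

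**Figure D2:**
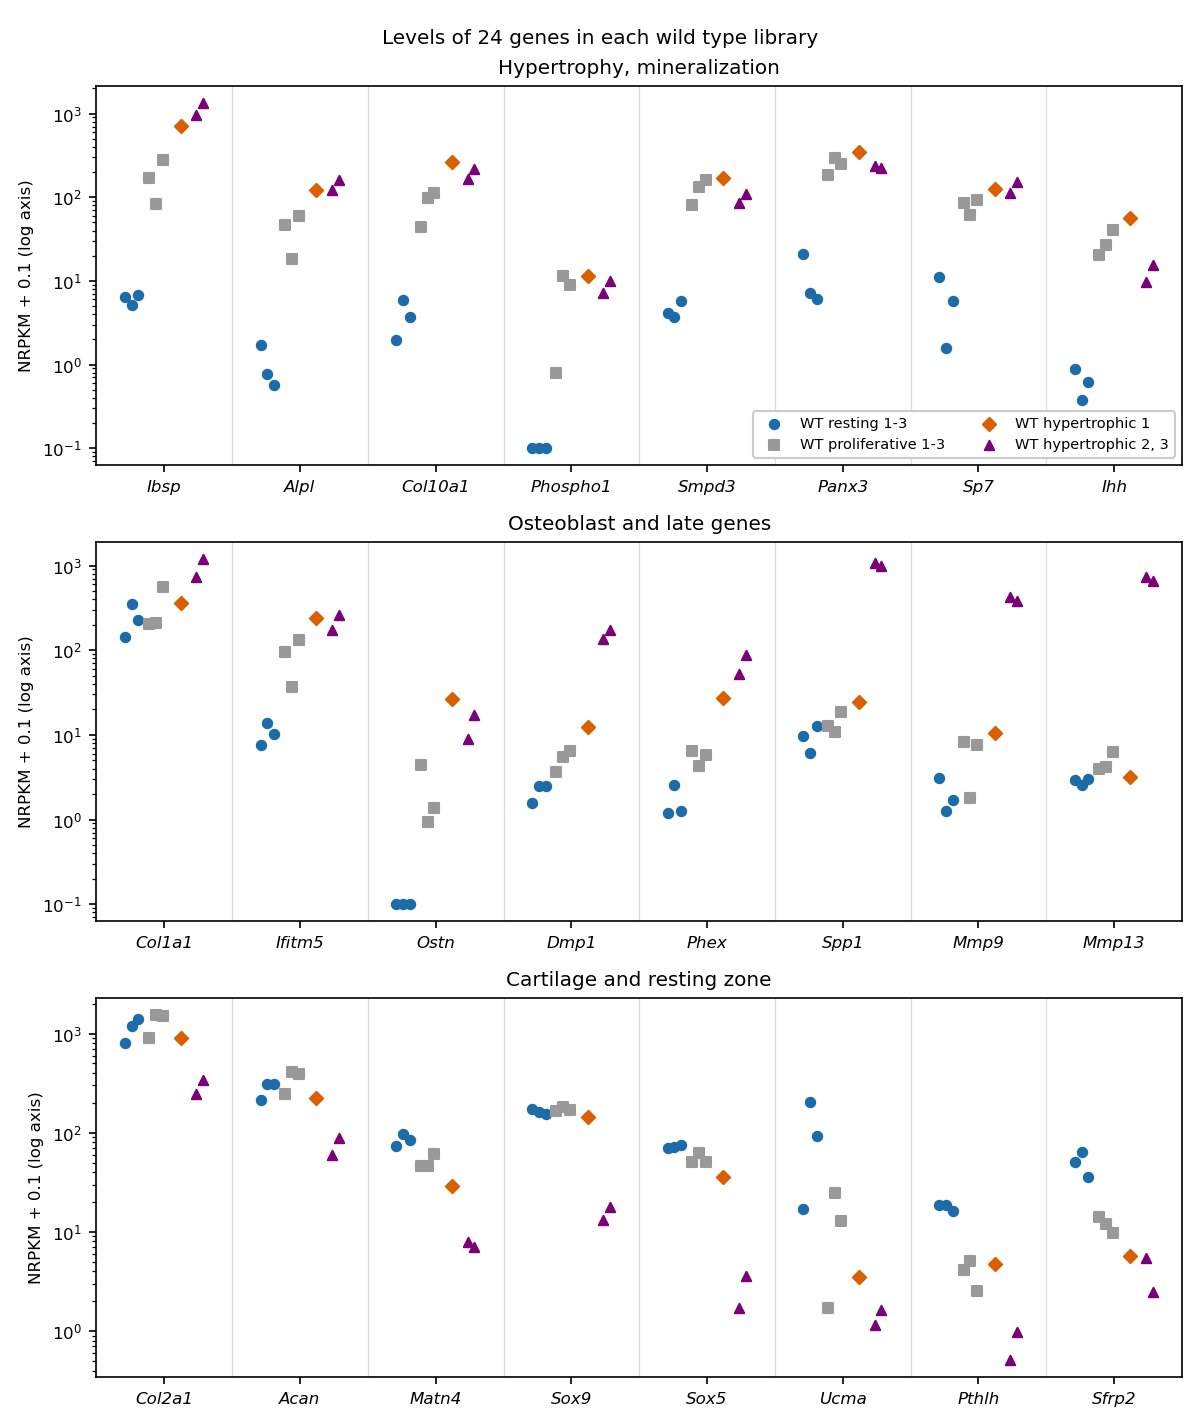
NRPKM plus 0.1 on a log axis for 24 genes in each WT library, with resting (circles), proliferative (squares), hypertrophic replicate 1 (diamond) and hypertrophic replicates 2 and 3 (triangles). For *Ibsp*, *Alpl* and *Col10a1* replicate 1 sits with replicates 2 and 3, for *Mmp13* at 3.05 NRPKM it sits with the resting libraries, and for *Col2a1*, *Acan* and *Sox9* it sits near the resting libraries while replicates 2 and 3 are lower.

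Genes of the cartilage matrix fell, mostly in replicates 2 and 3. All 18 listed were tested, 15 were lower and none higher by *P* and FC, and 1 (*Matn4*) had an adjusted *P* under 0.05. Without replicate 1 all 18 passed as lower. The summed level of the 18 genes was 3840.1 to 6034 NRPKM in the resting, 4230.0 to 7129.9 in the proliferative and 3954 in hypertrophic replicate 1, but 939.6 and 1342 in replicates 2 and 3. *Col2a1*, the main collagen of cartilage, was at 799, 1202 and 1409 NRPKM in resting and 898, 245 and 343 in hypertrophic libraries (adjusted *P* = 0.13, and 0.0074 without replicate 1). *Col9a3*, a subunit of the type IX collagen that coats its fibrils, went from 344–467 NRPKM in resting to 244 in replicate 1 and 45.7 and 60.7 in replicates 2 and 3. *Matn4*, a matrilin that links matrix fibres, was at 72.9, 96.7 and 84.5 NRPKM in resting and 29.3, 7.86 and 6.92 in hypertrophic libraries (-2.84 ± 0.54, adjusted *P* = 0.029), with replicate 1 between the resting libraries and replicates 2 and 3. The link protein *Hapln1* was at 595 NRPKM in replicate 1, above the resting 269.7 to 329.6, and at 66.6 and 81.5 in replicates 2 and 3.

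The SOX trio, which switches on the matrix genes, had the same shape. *Sox9* was at 174, 160.4 and 156 NRPKM in resting, 143 in replicate 1 and 12.9 and 17.6 in replicates 2 and 3 (-2.35 ± 0.85, adjusted *P* = 0.14, and 0.000366 without replicate 1). *Sox5* was at 69.9 to 74.9 NRPKM in resting and 35.3, 1.61 and 3.51 in hypertrophic libraries, and *Sox6* at 46.9 to 59.5 NRPKM in resting and 39.96, 10.1 and 13.7 in hypertrophic libraries. For all 3 genes every hypertrophic library was below every resting library, and the mean of replicates 2 and 3 was 10.7-fold, 28.1-fold and 4.51-fold below the resting mean for *Sox9*, *Sox5* and *Sox6*. *Fgfr3*, a brake on chondrocyte growth, was at 58.8 to 60.6 NRPKM in resting, 63.7 in replicate 1 and 17.4 and 18.5 in replicates 2 and 3 (adjusted *P* = 0.21, and 0.0011 without replicate 1).

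Of 10 resting chondrocyte genes tested, 8 fell and none rose, the SOX trio among them, 4 of them with an adjusted *P* under 0.05, and 3 of the 10 met the filter through the resting libraries alone, so that their difference was partly set by the filter. *Pthlh* was at 18.7, 18.5 and 16.2 NRPKM in resting, 4.04, 5.04 and 2.45 in proliferative and 4.66, 0.409 and 0.888 in hypertrophic libraries (-3.74 ± 0.76, adjusted *P* = 0.034). *Ucma*, a matrix protein of the resting zone, was at 16.9, 205 and 91.6 NRPKM in resting and 3.39, 1.05 and 1.52 in hypertrophic libraries, with a wide spread among the resting libraries and no overlap (adjusted *P* = 0.023). *Sfrp2*, a secreted binder of Wnt proteins, was at 50.1, 63.2 and 35.3 NRPKM in resting and 5.56, 5.40 and 2.35 in hypertrophic libraries (-3.51 ± 0.39, adjusted *P* = 0.0051). Of 12 joint genes tested, 6 fell, 2 rose and 4 did not pass, and 5 of the 12 met the filter through one group alone, *Osr2* through the resting libraries. The joint organizer *Gdf5* went from 17.4, 8.42 and 7.43 to 5.54, 0.667 and 0.870 NRPKM (adjusted *P* = 0.083) and the odd-skipped factor *Osr2* from 5.02–16.5 to 2.87, 0.176 and 0.513 NRPKM. The genes that rose, *Wnt4* and *Col22a1*, are also expressed outside joints. *Clu*, listed as a resting gene, was at 1.498, 3.18 and 13.6 NRPKM in resting and 1.89, 45.8 and 44.6 in hypertrophic libraries, high in replicates 2 and 3 alone.

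Among 12 limb Hox genes and cofactors tested, 7 fell and none rose, with adjusted *P* under 0.05 for 3, and 3 of the 12, *Pknox2* among them, met the filter through one group alone. *Hoxd10*, a patterning gene of the forelimb, was at 23.3, 12.3 and 12.2 NRPKM in resting, 3.17, 3.21 and 4.14 in proliferative and 2.87, 1.21 and 2.37 in hypertrophic libraries (-2.85 ± 0.39, adjusted *P* = 0.01). *Hoxa5* fell from 14.7–26.4 to 7.65, 3.78 and 3.12 NRPKM and the Hox partner *Pknox2* from 5.20–5.56 to 2.06, 1.51 and 2.89, whereas *Pbx3* was at 7.02 to 15.7 NRPKM in resting and 10.3, 10.8 and 11.4 in hypertrophic libraries. Replicate 1 was below all 3 resting libraries for each of the 7 genes. *Meis3* had at least 5 NRPKM in hypertrophic replicates 2 and 3 alone, was not tested and stood the other way, at 0 to 0.438 NRPKM in resting and 4.003, 9.80 and 6.04 in hypertrophic libraries.

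Of 20 osteoblast genes listed 16 were tested, 12 rose and none fell, and 10 had an adjusted *P* under 0.05. For 8 of the 16 the filter was met through the hypertrophic libraries alone, so their difference was partly set by it. The list's median difference from the resting mean was 2.70 in replicate 1, 4.22 in replicate 2 and 4.93 in replicate 3. *Ifitm5*, a membrane protein of bone-forming cells, was at 7.57, 13.6 and 10.1 NRPKM in resting and 240.2, 171 and 263 in hypertrophic libraries (adjusted *P* = 0.000736). *Ostn*, a secreted bone peptide, was listed at 0 in all 3 resting libraries and at 26.6, 8.88 and 17.1 NRPKM in the hypertrophic, at least 19.98-fold higher than the value of 3 reads and highest in replicate 1.

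*Dmp1* and *Phex*, genes of mature bone cells that control phosphate, were graded. *Dmp1* was at 1.47, 2.41 and 2.41 NRPKM in resting, 12.2 in replicate 1 and 134 and 171 in replicates 2 and 3 (adjusted *P* = 0.031). *Phex* was at 1.11 to 2.47 NRPKM in resting and 27.2, 52.4 and 88.6 in hypertrophic libraries (adjusted *P* = 0.0035). The bone collagen gene *Col1a1* was already at 142, 355 and 227 NRPKM in resting libraries and reached 359.8, 723 and 1187 (adjusted *P* = 0.1), with only a narrow gap between the groups. Osteocalcin, the late osteoblast marker, remained low. *Bglap* was at 1.40, 1.98 and 3.54 NRPKM and *Bglap2* at 0, 2.62 and 4.28 NRPKM in the hypertrophic libraries.

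**Figure D3:**
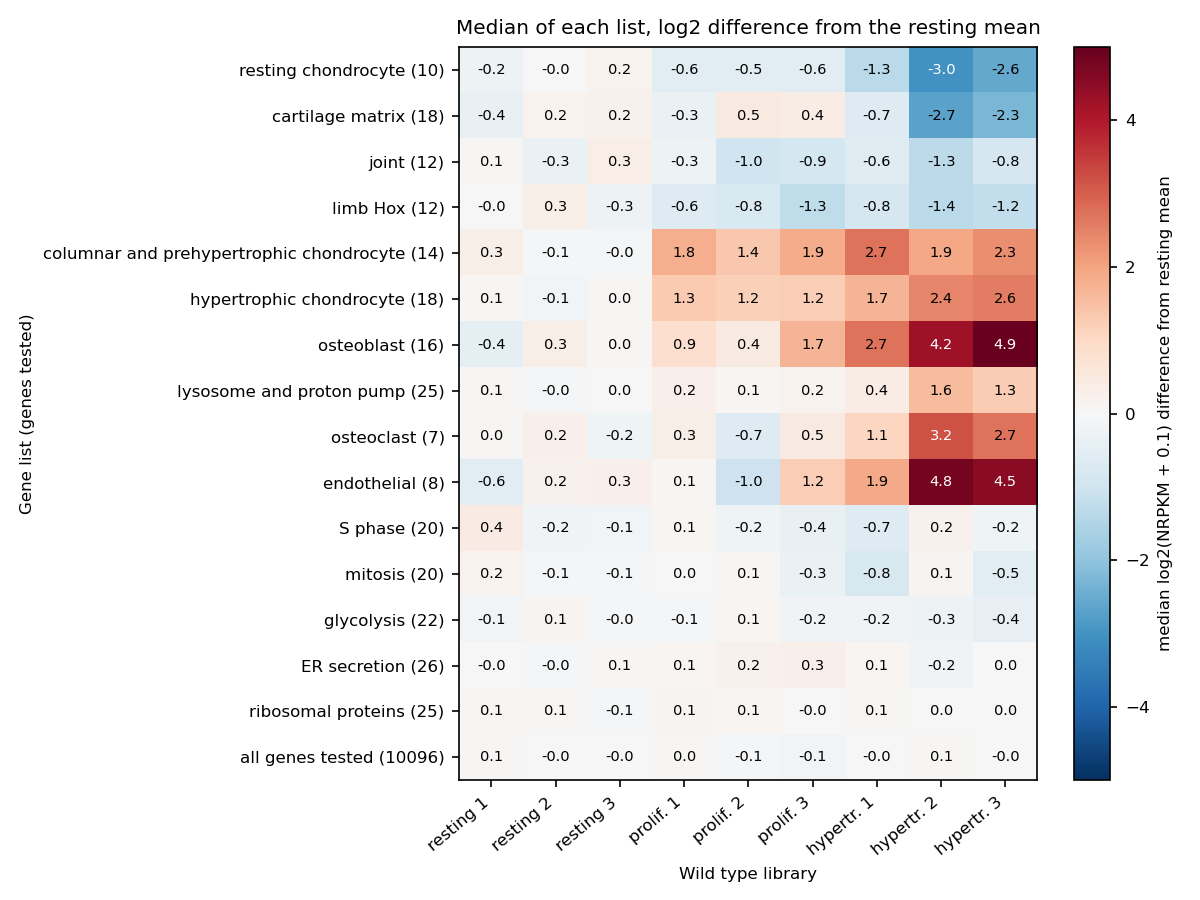
Median over the genes tested of each list of the log2(NRPKM + 0.1) difference from the resting mean, for the 9 WT libraries (columns). The number of genes tested is given beside each list. For cartilage matrix hypertrophic replicate 1 stands at -0.66, replicate 2 at -2.66 and replicate 3 at -2.29, the prehypertrophic list is highest in replicate 1, and ribosomal proteins stay near 0 in every library.

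A further group of genes was high in replicates 2 and 3 alone. In all, 471 rows had at least 5 NRPKM in both of these libraries but in none of the other 4 and so were not tested, 52 of them above 20 NRPKM in both. The highest was *Mmp13*, the collagenase of terminal hypertrophic chondrocytes, at 2.82, 2.45 and 2.88 NRPKM in resting, 3.81, 4.12 and 6.24 in proliferative, 3.05 in replicate 1 and 735 and 661 in replicates 2 and 3. The mean of these 2 libraries was 257-fold the resting mean, and replicate 1 lay at the resting level. Among the genes tested, *Spp1* (osteopontin) was at 9.61, 6.04 and 12.5 NRPKM in resting, 24.1 in replicate 1 and 1083 and 979 in replicates 2 and 3 (adjusted *P* = 0.08, and 0.000245 without replicate 1). *Mmp9*, the gelatinase of osteoclasts and other cells at the cartilage front, was at 3.02, 1.16 and 1.62 NRPKM in resting, 10.3 in replicate 1 and 422 and 378 in replicates 2 and 3 (adjusted *P* = 0.052). The osteoclast cytokine *Tnfsf11* (RANKL) was at 0 in resting, 0.958 NRPKM in replicate 1 and 11.9 and 11.3 in replicates 2 and 3.

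The promoters of *Mmp13* and *Spp1*, both high in replicates 2 and 3 but not in replicate 1, are shown beside these values (RefSeq, GRCm38.p6, 250 bases before to 50 bases after the start, 5′ to 3′). Capitals mark TGTGGT, the core bound by RUNX proteins, or its reverse complement, and TGANTCA, the AP-1 site.
*Mmp13*, chr9:7272264-7272563, plus strand: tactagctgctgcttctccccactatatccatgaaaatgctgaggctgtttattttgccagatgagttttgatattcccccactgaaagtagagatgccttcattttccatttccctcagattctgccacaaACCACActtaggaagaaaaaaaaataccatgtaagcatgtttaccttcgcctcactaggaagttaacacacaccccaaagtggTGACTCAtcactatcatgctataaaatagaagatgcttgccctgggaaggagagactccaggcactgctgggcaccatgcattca
*Spp1*, chr5:104434861-104435160, plus strand: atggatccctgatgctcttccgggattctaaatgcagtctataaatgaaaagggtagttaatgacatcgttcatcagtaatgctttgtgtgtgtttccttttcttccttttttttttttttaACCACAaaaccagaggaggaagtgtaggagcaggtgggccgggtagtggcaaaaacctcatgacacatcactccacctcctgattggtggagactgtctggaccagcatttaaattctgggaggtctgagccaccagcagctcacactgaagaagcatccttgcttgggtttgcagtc
The RUNX core begins at -118 in *Mmp13* and at -128 in *Spp1*, counted from the start, and the AP-1 site at -35 in *Mmp13*. On either strand the RUNX core was held by 16.9% of 27025 promoters, 11.5% of those of genes tested, 53 of 443 of genes that rose and 51 of 465 of genes that fell. AP-1 sites were held by 7.93% of all promoters, 4.28% of those of genes tested, 6.09% of those that rose and 6.45% of those that fell. A match of letters is a description of the window and no evidence of binding.

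Markers of several other cell types were high in replicates 2 and 3 as well. The summed level of 14 osteoclast genes was 78.5 to 98.9 NRPKM in the resting, 72.1 to 93.4 in the proliferative and 98.1 in hypertrophic replicate 1, and 1314 and 914 in replicates 2 and 3. Of these 14 genes 7 were tested, 4 rose and none fell, and 6 of the other 7 reached 5 NRPKM in replicates 2 and 3 alone. *Acp5* (TRAP, the enzyme that stains osteoclasts) was at 2.51 to 2.90 NRPKM in resting, 2.92 in replicate 1 and 246 and 199.96 in replicates 2 and 3, and *Ctsk*, their collagen-cutting cathepsin, at 3.69 to 11.0 NRPKM in resting, 16.0 in replicate 1 and 300.1 and 111 in replicates 2 and 3. The fusion gene *Ocstamp* was at 0 to 0.400 NRPKM in resting, 1.09 in replicate 1 and 51.2 and 42.6 in replicates 2 and 3. *Tnfrsf11a* (RANK) rose in all 3 libraries, from 3.68–4.88 to 13.1, 21.0 and 20.6 NRPKM (adjusted *P* = 0.0069), and *Nfatc1*, the master factor of osteoclasts but also expressed in cartilage, was at 35.6 to 49.2 NRPKM in resting and 20.9, 49.0 and 48.5 in hypertrophic libraries.

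The 20 endothelial genes summed to 62.3 to 82.6 NRPKM in resting and 28.2 to 62.3 in proliferative libraries. In the hypertrophic they summed to 105 in replicate 1 and 589 and 425 in replicates 2 and 3. Of the 8 tested 6 rose, 6 of the 8 met the filter through the hypertrophic libraries alone, and 11 others reached 5 NRPKM in replicates 2 and 3 alone. The endothelial cadherin *Cdh5* was at 0.340, 3.16 and 2.65 NRPKM in resting and 7.30, 96.5 and 72.5 in hypertrophic libraries, and *Pecam1* at 0.765 to 2.75 NRPKM in resting, 2.41 in replicate 1 and 46.2 and 35.0 in replicates 2 and 3. *Flt4*, a VEGF receptor of lymphatic vessels, was even across the hypertrophic replicates. It had 0.232, 0.428 and 0.536 NRPKM in resting and 16.7, 23.7 and 18.8 in hypertrophic libraries, with replicate 1 close to the other two (5.35 ± 0.28, adjusted *P* = 0.00042). *Erg*, which cartilage also expresses, was at 28.5 to 39.9 NRPKM in resting and 28.6, 18.7 and 22.1 in hypertrophic libraries.

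The 15 macrophage genes summed to 16.8 to 27.1 NRPKM in resting and 29.7 to 44.2 in proliferative libraries. In the hypertrophic they summed to 37.0 in replicate 1 and 469 and 375 in replicates 2 and 3. Most of this came from genes that osteoclasts share, as *Cd68* and *Tyrobp* were at 174 and 160.4 and 164 and 136 NRPKM in replicates 2 and 3. Of the genes that mark macrophages more closely, *Emr1* (F4/80) was at 1.77 and 0.478 and *C1qa* at 0.285 and 0 NRPKM in the same libraries. Globin and other erythroid genes summed to 74.7 to 90.9 NRPKM in resting and 141, 65.7 and 176 in proliferative libraries. In the hypertrophic they summed to 137 in replicate 1 and 465 and 497 in replicates 2 and 3. The 14 skeletal muscle genes summed to 10.8 to 18.2 NRPKM in resting, 29.7 in replicate 1 and 50.4 and 58.7 in replicates 2 and 3. Their sums in the proliferative libraries were 25.2, 16.4 and 157, so that proliferative replicate 3 stood above every hypertrophic library. The 16 genes of perichondrium and fibroblasts, tissue that was captured in part, summed to 616 to 964 NRPKM in resting, 763 to 1438 in proliferative, 953 in replicate 1 and 1366 and 1946 in replicates 2 and 3. Of 14 tested 4 rose (*Col1a1*, *Thy1*, *Twist1* and *Aspn*) and 1 fell. The 12 tendon genes, of which 1 (*Col1a1*) rose and 2 fell among 8 tested, summed to 425 to 975 NRPKM in resting, 416 to 992 in proliferative, 523 in replicate 1 and 1235 and 1739 in replicates 2 and 3. Both sums hold *Col1a1*, which is also on the osteoblast list. Over all genes tested 5.81% rose and 6.46% fell. The part of these other cells in the levels of *Mmp9*, *Spp1*, *Col1a1*, the osteoblast and proton pump genes and other genes that they share with chondrocytes was not tested.

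Of 25 proton pump and lysosome genes tested, 12 rose, none fell and 13 did not pass, 2 with an adjusted *P* under 0.05, and 17 passed as higher without replicate 1. For 17 of the 25 all 3 hypertrophic libraries, replicate 1 included, lay above all 3 resting libraries, as for 14.7% of all genes tested. Of all genes tested 5.81% passed as higher, and 3.94% were higher with an adjusted *P* under 0.05 (limma). The median difference of the 25 genes from the resting mean was 0.37 in replicate 1 and 1.56 and 1.28 in replicates 2 and 3. The pump subunit *Atp6v1b2* was at 9.67 to 12.2 NRPKM in resting, 17.0 in replicate 1 and 86.6 and 75.9 in replicates 2 and 3 (adjusted *P* = 0.076, and 0.000482 without replicate 1). *Atp6v0a1*, a subunit form of neurons and other cells, was at 10.8 to 13.2 NRPKM in resting and 10.7, 11.1 and 13.6 in hypertrophic libraries.

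**Figure D4:**
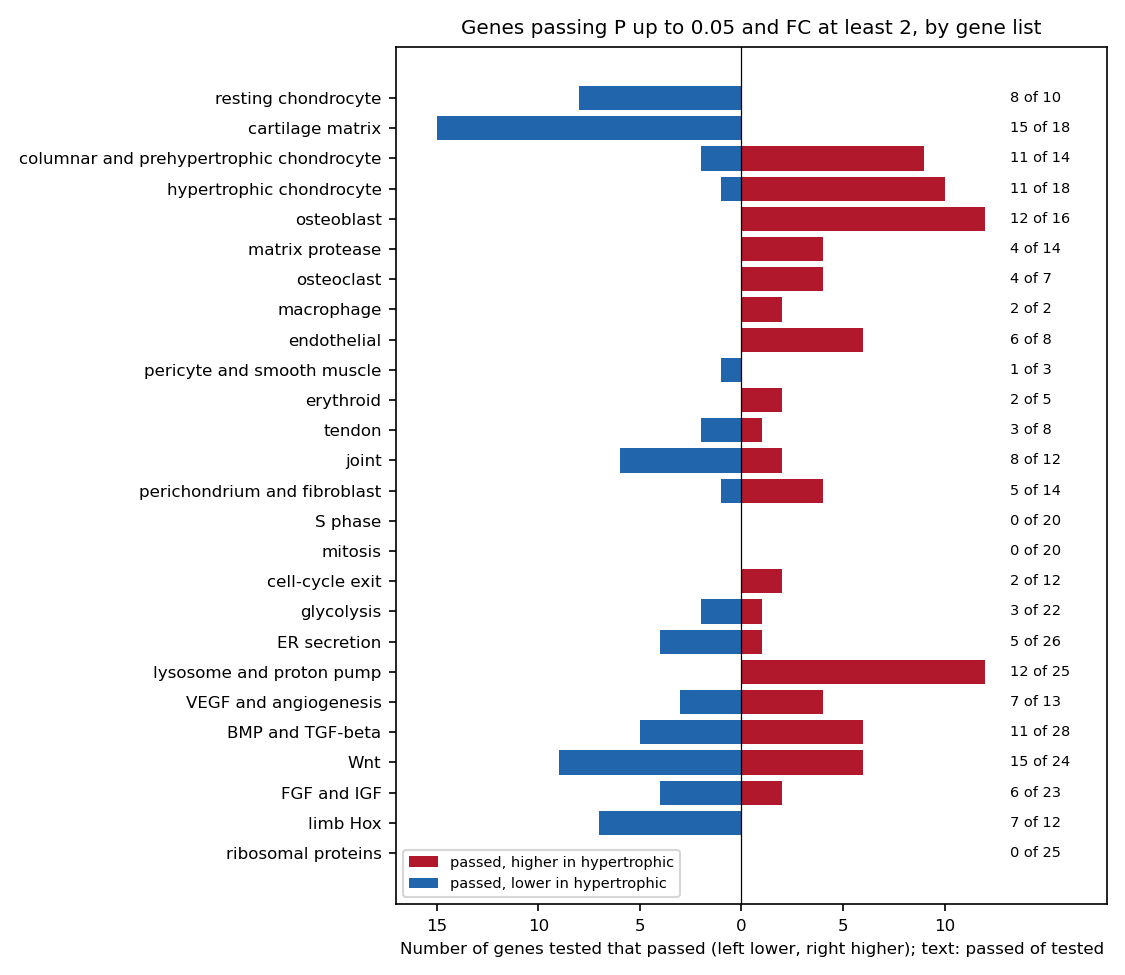
Number of genes tested in each list that passed *P* up to 0.05 and FC of at least 2, as bars to the right (higher in hypertrophic) or left (lower), with the total of those tested at the right edge. The cartilage matrix list has 15 of 18 genes lower, the osteoblast and proton pump lists have 12 genes each higher, Wnt genes passed in both directions, and no S phase, mitosis or ribosomal protein gene passed.

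Wnt pathway genes moved in both directions. Of 24 tested, 6 rose and 9 fell, 5 and 8 of them with an adjusted *P* under 0.05. For 6 of the 24 the filter was met through one group alone, as for *Wnt5b* and *Tcf7* through the hypertrophic libraries, so their difference was partly set by it. The ligands *Wnt5a*, *Wnt4* and *Wnt5b* passed as higher. *Wnt5a* was at 10.9, 4.98 and 5.74 NRPKM in resting and 42.0, 20.5 and 25.7 in hypertrophic libraries (adjusted *P* = 0.028), *Wnt4* at 7.26 to 8.60 NRPKM in resting and 32.6, 21.8 and 19.8 in hypertrophic libraries, and *Wnt5b* at 0.664 to 2.55 NRPKM in resting and 5.64, 5.26 and 5.84 in hypertrophic libraries. Of the receptors *Ror2*, *Fzd9* and *Fzd2* fell and *Lrp4*, a receptor of Wnt inhibitors, rose. *Ror2*, a receptor for *Wnt5a*, went from 13.2, 11.2 and 10.8 to 3.44, 2.18 and 1.86 NRPKM (-2.23 ± 0.26, adjusted *P* = 0.0058). Secreted inhibitors went both ways, as *Sfrp1*, *Sfrp2*, *Sfrp5* and *Dkk3* fell, as did the intracellular inhibitor *Nkd1*, while *Dkk1* rose from 3.94, 6.85 and 7.17 to 50.8, 38.2 and 57.6 NRPKM (3.04 ± 0.29, adjusted *P* = 0.0031). Nuclear partners of beta-catenin went both ways. *Tcf7* rose from 1.74, 2.09 and 3.09 to 68.4, 35.7 and 46.2 NRPKM (4.37 ± 0.31, adjusted *P* = 0.0013) and *Lef1* fell from 26.6, 37.0 and 15.02 to 9.12, 5.20 and 6.30 (-1.86 ± 0.37, adjusted *P* = 0.034), both without overlap. The feedback target *Axin2* was at 5.58 to 6.79 NRPKM in resting and at 16.1 in replicate 1 and 3.56 and 3.85 in replicates 2 and 3, above and below the resting libraries.

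Of 28 BMP and TGF-beta genes tested, 6 rose and 5 fell, and 3 of the 28 met the filter through one group alone. The ligand *Bmp3* rose from 2.87, 3.03 and 5.85 to 17.6, 38.9 and 48.9 NRPKM (adjusted *P* = 0.013) and *Bmp8a* from 0, 0.521 and 0.326 to 10.8, 21.8 and 26.03 (adjusted *P* = 0.0064). *Tgfb1* rose from 1.34, 2.59 and 3.01 to 10.7, 35.7 and 36.0 NRPKM (adjusted *P* = 0.017), whereas *Tgfb2* and *Tgfb3* did not pass. *Bmp4* was at 5.22 to 11.0 NRPKM in resting and 46.5, 20.8 and 28.2 in hypertrophic libraries (adjusted *P* = 0.035), and *Bmp2*, highest in replicate 1, at 14.6 to 24.8 NRPKM in resting and 63.5, 26.2 and 35.1 in hypertrophic libraries (adjusted *P* = 0.12). Those that fell were the ligands *Gdf5*, *Gdf10* and *Bmp5*, the receptor *Bmpr1b* and the BMP antagonist *Nog*. *Gdf10* was at 33.3, 26.8 and 40.5 NRPKM in resting and 13.3, 2.34 and 4.42 in hypertrophic libraries (adjusted *P* = 0.045). Another type I receptor, *Bmpr1a*, was at 34.5 to 63.7 NRPKM in resting and 51.4, 35.5 and 37.1 in hypertrophic libraries.

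Of 23 FGF and IGF genes tested 2 rose and 4 fell, beside 12.3% of all genes tested that passed. Of the 23, 2 met the filter through one group alone. The feedback inhibitor *Spry4* was at 2.58 to 3.30 NRPKM in resting and 7.37, 36.5 and 35.5 in hypertrophic libraries (adjusted *P* = 0.043), and the decoy receptor *Fgfrl1* at 83.2 to 97.0 NRPKM in resting and 49.0, 24.1 and 25.98 in hypertrophic libraries (adjusted *P* = 0.033). *Igf2*, a fetal growth factor, was at 1028, 1296 and 1413 NRPKM in resting, 1119 in replicate 1 and 386 and 529 in replicates 2 and 3 (adjusted *P* = 0.16). Of 13 VEGF and angiogenesis genes tested 4 rose (*Flt4*, *Nrp1*, *Nrp2* and *Angpt1*) and 3 fell, and 3 of the 13 met the filter through one group alone. *Vegfa*, the ligand that draws vessels to hypertrophic cartilage, was at 28.1, 57.6 and 36.4 NRPKM in resting and 18.03, 33.8 and 48.1 in hypertrophic libraries and overlapped (-0.34 ± 0.42, adjusted *P* = 0.64). The VEGF co-receptor *Nrp2* was at 11.9 to 17.9 NRPKM in resting and 62.0, 70.1 and 74.9 in hypertrophic libraries (adjusted *P* = 0.0038), and the vessel inhibitor *Lect1* (chondromodulin) went from 323–473 to 225, 39.3 and 62.8 NRPKM (adjusted *P* = 0.072).

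None of 20 S phase and none of 20 mitosis genes passed in either direction, under a label that names the hypertrophic zone hyperproliferative. The log2 fold change was below 0 for 17 of the S phase and for all 20 of the mitosis genes, with medians of -0.19 and -0.42. Without replicate 1 these medians were -0.03 and -0.20. For 3 and 4 of them every hypertrophic library was below every resting library, a share near the 17.7% of all genes tested. The median difference of the S phase genes from the resting mean was -0.66 in replicate 1, 0.22 in replicate 2 and -0.22 in replicate 3. The median difference of the mitosis genes from the resting mean was -0.80 in replicate 1, 0.15 in replicate 2 and -0.53 in replicate 3. The mitosis genes summed to 675 to 840.4 NRPKM in resting libraries, and to 446 in hypertrophic replicate 1 and 766 and 538 in replicates 2 and 3. *Top2a*, a topoisomerase of dividing cells, was at 82.4, 59.7 and 66.4 NRPKM in resting and 41.8, 78.1 and 55.3 in hypertrophic libraries, lowest in replicate 1. Of 12 genes of cell-cycle exit 2 rose and none fell, a share near the 12.3% of all genes tested. Their median log2 fold change was -0.21, with 7 of the 12 below 0. The inhibitor *Cdkn1a* (p21) rose from 5.50, 11.5 and 11.1 to 68.7, 111 and 103 NRPKM (3.36 ± 0.34, adjusted *P* = 0.0038) and the retinoblastoma gene *Rb1* from 4.81, 6.61 and 6.18 to 32.5, 19.9 and 17.0 (1.92 ± 0.28, adjusted *P* = 0.013). *Cdkn1c* (p57) was at 256, 182 and 238 NRPKM in resting, 285 in replicate 1 and 67.8 and 92.3 in replicates 2 and 3 (adjusted *P* = 0.33, and 0.0079 without replicate 1).

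Of 22 glycolysis and hypoxia genes tested, *Car9* and *Pdk1* fell and *Epas1* rose, a share near the 12.3% of all genes tested. The log2 fold change was below 0 for 18 of the 22, with a median of -0.39. For 9 of the 22 every hypertrophic library was below every resting library, as for 17.7% of all genes tested. *Car9*, a carbonic anhydrase induced by low oxygen, was at 11.1, 33.3 and 24.2 NRPKM in resting and 1.95, 1.89 and 1.78 in hypertrophic libraries (-3.40 ± 0.39, adjusted *P* = 0.006). *Epas1* (HIF-2α) was at 4.73, 10.2 and 12.5 NRPKM in resting and 18.9, 45 and 37.0 in hypertrophic libraries (adjusted *P* = 0.057), and *Hif1a* at 45.6 to 64.1 NRPKM in resting and 37.0, 38.1 and 34.4 in hypertrophic libraries, lower without overlap but under 2-fold. Of 26 genes of secretion and collagen folding 4 fell and 1 rose, beside 12.3% of all genes tested that passed. The median log2 fold change of the 26 was 0.05, with 14 above 0 and 12 below. *Creb3l2*, a factor of collagen secretion in chondrocytes, went from 147–159 to 91.3, 45.7 and 50.03 NRPKM (adjusted *P* = 0.038), and its relative of osteoblasts, *Creb3l1*, from 18.04, 41.9 and 22.0 to 159, 159.7 and 193 (2.73 ± 0.33, adjusted *P* = 0.0067). Replicate 1 was on the side of replicates 2 and 3 for both. None of 25 ribosomal protein genes passed, and their median difference was 0.02 in log2.

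Among the 12 largest rises with clear separation were *Ibsp*, *Ostn*, *Alpl*, *Tyrobp*, *Irx5*, *Car3*, *Phospho1*, *Cbr3*, *Btla* and *Tnfaip2*. No overlap and at least 5 NRPKM in all 3 hypertrophic libraries were conditions of this ranking, so their separation is no separate result. All of these but *Ibsp* met the filter through the hypertrophic libraries alone, so their difference was partly set by it. Several had under 3 reads in each resting library, and for these levels are given. The Iroquois factor *Irx5* was at 0, 0.173 and 0 NRPKM in resting and 19.6, 16.4 and 16.9 in hypertrophic libraries (adjusted *P* = 0.000516), even across the 3 replicates. *Cbr3*, a carbonyl reductase, was at 0, 0 and 0.335 NRPKM in resting and 18.1, 12.1 and 14.1 in hypertrophic libraries, and *Btla*, an immune receptor, at 0.209, 0 and 0.121 NRPKM in resting and 9.32, 22.8 and 15.9 in hypertrophic libraries. *Car3*, the muscle and fat carbonic anhydrase, was at 0.129, 0.158 and 0 NRPKM in resting and 5.21, 37.9 and 33.6 in hypertrophic libraries. *Tyrobp*, a myeloid adaptor, was at 0.263, 0.162 and 0.691 NRPKM in resting, 6.81 in replicate 1 and 164 and 136 in replicates 2 and 3, and *Tnfaip2* at 0, 0.130 and 0.216 NRPKM in resting and 9.34, 17.1 and 19.3 in hypertrophic libraries. *Entpd3*, a nucleotidase among the 10 smallest *P* values, rose from 0.490, 0.528 and 0.227 to 40.8, 33.1 and 34.8 NRPKM (adjusted *P* = 0.000264). It too met the filter through the hypertrophic libraries alone.

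By the same rule, which set aside rows with microRNA, snoRNA, predicted and Rik symbols, the 12 largest falls were *Trhr2*, *Ucma*, *Cmtm5*, *AF357355*, *AF357426*, *DQ267102*, *Trabd2b*, *Itgbl1*, *Scrg1*, *Zfp648*, *Arsj* and *Cxcr1*. Of the rows set aside 93 met the other conditions as lower and 16 as higher and were not ranked here. *Trhr2*, *Ucma*, *Trabd2b*, *Itgbl1* and *Zfp648* met the filter through the resting libraries alone, so their difference was partly set by it. Over all genes tested 430 met it through 1 group alone, 217 through the hypertrophic and 213 through the resting libraries. *Trabd2b*, a protease that acts on Wnt proteins, was at 14.3, 18.9 and 28.1 NRPKM in resting and 1.56, 0.373 and 0.660 in hypertrophic libraries (-4.55 ± 0.49, adjusted *P* = 0.0045). *Scrg1*, a secreted protein of cartilage, was at 50.9, 111 and 122 NRPKM in resting and 11.0, 1.32 and 5.76 in hypertrophic libraries (adjusted *P* = 0.024), and *Itgbl1*, an integrin-like matrix protein, at 14.2, 23.7 and 40.3 NRPKM in resting and 3.27, 0.613 and 0.666 in hypertrophic libraries (adjusted *P* = 0.016). *Trhr2*, a receptor of thyrotropin-releasing hormone, was at 7.53, 13.3 and 15.8 NRPKM in resting and 0.582, 0 and 0 in hypertrophic libraries. *Zfp648* was at 12.1, 37.2 and 46.0 NRPKM in resting and 1.82, 0.658 and 2.15 in hypertrophic libraries (adjusted *P* = 0.013). *Cmtm5* was at 72.6, 86.2 and 64.3 NRPKM in resting, 23.8 in replicate 1 and 1.03 and 0.261 in replicates 2 and 3 (adjusted *P* = 0.075), and *Arsj* and *Cxcr1* likewise had adjusted *P* of 0.081 and 0.087 with all 6 libraries.

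*AF357355*, *AF357426* and *DQ267102* are small nucleolar RNA rows within *Rian* that their symbols did not set aside. *AF357355* was at 38.4, 46.1 and 56.5 NRPKM in resting and 8.44, 0 and 2.84 in hypertrophic libraries, *AF357426* at 113, 139.6 and 147 and then 43.8, 1.84 and 1.10, and *DQ267102* at 36.3, 48.9 and 43.9 and then 30.6, 0 and 1.04. None of the 3 had an adjusted *P* under 0.05 (0.087, 0.068 and 0.16). *DQ267102* rests on replicates 2 and 3, as its log2 fold change was -6.99 without replicate 1 and -2.85 without replicate 2, and it lost its call under 6 alternatives. Of the 10 smallest *P* values 4 (*Mir154*, *Mir668*, *Mir3070a* and *Mir411*) were microRNA rows nearby. All lie in the imprinted *Dlk1*-*Meg3* domain (mm10, chr12:109452823-109749457), which was therefore described as a whole after its values had been seen. From this region the father's copy gives *Dlk1* and *Rtl1*, and the mother's copy gives long noncoding RNAs that hold many microRNAs and snoRNAs. All 5 long transcripts were lower. *Dlk1*, which encodes a membrane inhibitor of differentiation, was at 75.6, 116 and 132 NRPKM in resting, 54.0, 62.5 and 80.7 in proliferative and 28.0, 5.71 and 12.1 in hypertrophic libraries (-3.06 ± 0.56, adjusted *P* = 0.027). *Meg3* was at 127, 198 and 195 NRPKM in resting and 65.7, 7.81 and 11.0 in hypertrophic libraries (adjusted *P* = 0.052), *Rian* at 253, 378 and 411 NRPKM in resting and 131, 23.1 and 32.6 in hypertrophic libraries (-2.88 ± 0.63, adjusted *P* = 0.043), and *Mirg* at 67.3, 99.0 and 108 NRPKM in resting and 21.9, 2.85 and 4.73 in hypertrophic libraries (adjusted *P* = 0.029). *Rtl1* was at 56.9, 90.7 and 91.4 NRPKM in resting and 24.98, 2.14 and 4.17 in hypertrophic libraries (adjusted *P* = 0.049). For each of the 5, every hypertrophic library was below every resting library, and replicate 1 lay below the proliferative libraries and above replicates 2 and 3.

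Of 71 rows in the domain 41 were tested and all 41 passed as lower, 21 with an adjusted *P* under 0.05. These are not separate measurements, since many rows lie within the long transcripts and share their reads, and 18 of the 41 met the filter through the resting libraries alone. For the 30 of 32 microRNA rows tested whose length was known, the mean over the resting libraries came to 1.90 to 47.4 reads (median 8.23). Libraries of this kind read the host RNA over each hairpin rather than the mature microRNA. *Mir668* was at 16.6, 27.4 and 23.9 NRPKM in resting and *Mir411* at 8.59, 16.5 and 24.1, a few reads in each library, and both were listed at 0 in all hypertrophic libraries. Mature sequences were matched in RefSeq for all 58 microRNA rows (108 sequences with 99 seeds, of which 9 were held by a pair of sequences). Those of *Mir379* and *Mir411*, neighbours in the cluster, are shown 5′ to 3′ (GRCm38.p6, plus strand) with the seed (bases 2 to 8) in capitals, because their 3p arms share a seed.
mmu-miR-379-5p, chr12:109709065-109709085: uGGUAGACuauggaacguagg
mmu-miR-379-3p, chr12:109709102-109709123: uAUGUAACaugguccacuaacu
mmu-miR-411-5p, chr12:109710190-109710210: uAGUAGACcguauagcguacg
mmu-miR-411-3p, chr12:109710225-109710246: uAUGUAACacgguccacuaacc
*Mir379* was at 26.6, 47.2 and 74.8 NRPKM in resting and 7.66, 2.71 and 0 in hypertrophic libraries. *Mir717*, the remaining microRNA row among the smallest *P* values, lies within *Gpc3*, outside this domain, and was at 8.88, 6.72 and 6.60 NRPKM in resting and 0 in hypertrophic libraries, a few reads in each.

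**Figure D5:**
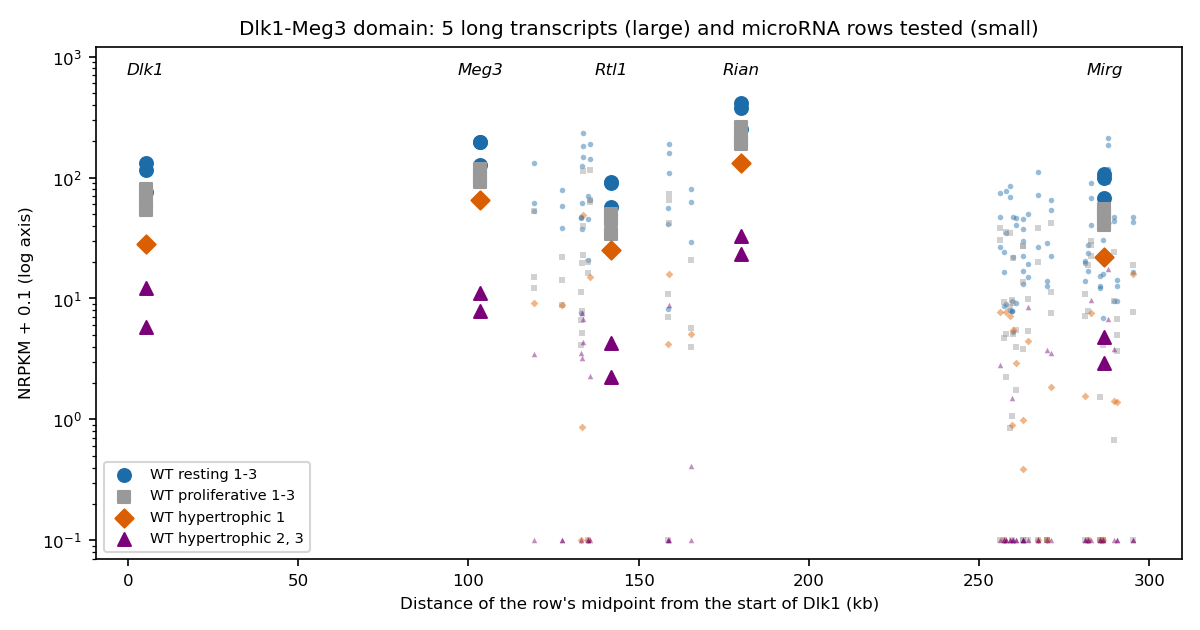
NRPKM plus 0.1 on a log axis against distance from the start of *Dlk1* in kb for rows of the *Dlk1*-*Meg3* domain in each WT library. Large symbols are the 5 long transcripts and small symbols the 32 microRNA rows tested, which share reads with them. At each of the 5 transcripts hypertrophic replicates 2 and 3 are lowest and replicate 1 lies below the resting and proliferative libraries.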

How the data were processed

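RNA-Seq was deposited for laser-captured WT resting, proliferative and hypertrophic chondrocytes, 3 libraries each, and for a mutant not used here except in one alternative fit. RNA was amplified with a NuGEN kit and made into libraries by Nextera tagmentation. The authors aligned reads to mm10 with TopHat (both per the submitters' processing notes), removed multiply aligned and duplicate reads, and computed RPKM in GeneSpring, deposited as normalized RPKM (NRPKM). The scaling between libraries and the use of strand are not given in the sources used here. Counts and depth are not in the file. Depth was read from the value of 1 read in single-exon receptor and keratin-associated protein rows. It is an approximate, effective depth, since the scaling between libraries enters it.

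Groups were taken from the labels. The comparison took genes that reached 5 NRPKM in 3 or more of the 6 libraries as log2(NRPKM + 0.1), in limma 3.58.1 in R 4.3.3, with Benjamini-Hochberg adjustment over all 10096 genes. A gene passed, and is said to rise or fall, with unadjusted *P* up to 0.05 and FC of at least 2. Fold changes on this scale understate those of low genes. In simulated data with 200 of 10096 genes changed, 45.5% of genes changed 2-fold, 94.5% changed 4-fold and 97.5% changed 8-fold passed. In the same 3 simulations 132, 115 and 107 unchanged genes passed as well. An adjusted *P* under 0.05 (limma) was reached by 0%, 75.5% and 88% of the changed genes, and by 0, 6 and 6 unchanged genes. The simulated noise was normal, independent between libraries and equal in both groups, with the spreads shuffled across genes. No simulated library stood apart as hypertrophic replicate 1 did, so these shares need not hold for the real data. Genes were named as the 12 largest rises and falls without overlap and with at least 5 NRPKM throughout the higher group (leaving out rows whose symbols begin with Mir, Snora, Snord or Gm or end in Rik, so that snoRNA rows with other symbols were kept), the 10 smallest *P*, the maturation genes the study names, and members of gene lists. These lists, and the genes compared, were chosen with earlier results of these data known. Genes described outside this rule (among them the 5 long transcripts of the *Dlk1*-*Meg3* domain) were chosen after their values were seen. Some genes that met the rule are not reported here. Alternatives changed the filter, pseudocount, scaling, libraries, replicate block and variance model. Promoter and microRNA sequences came from RefSeq (GRCm38.p6). Tables and plots were made with matplotlib 3.10.9, pandas 2.3.3 and numpy 2.4.6 under Python 3.11.15.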

Additional observations from a re-analysis of the deposited data

How the results depend on the processing

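Of 204 named or listed genes that passed, 163 passed under each of 17 alternatives and none changed direction. The count passing *P* and FC (1239) became 2769 with no filter and 1874 with array weights, and ranged from 1069 to 1819 when 1 library was left out, highest without hypertrophic replicate 1. The count with an adjusted *P* under 0.05 in limma (784) became 290 with no filter, 1569 with all 12 libraries in one fit and 4756 with array weights, which gave hypertrophic replicate 1 a weight of 0.19 and replicate 3 one of 5.83. It ranged from 202 to 2638 with 1 library left out: 468, 202 and 254 without resting replicates 1, 2 and 3, and 2638, 291 and 238 without hypertrophic replicates 1, 2 and 3. The cause was not tested, beyond the fewer libraries or other genes that enter these fits. Whether replicate numbers pair the samples was not established: same-numbered resting and hypertrophic libraries deviated from their group means with correlations of 0.03, 0.0007 and 0.11, while replicate 2 was male in each compartment. With the replicate block the adjusted count was 296 and the count passing 1267, and 64 of 112 named or listed genes with an adjusted *P* under 0.05 stayed under it. *Ucma* (0.079) and *Itgbl1* (0.068) were among the 48 that did not. A filter of 5 NRPKM in at least 2 of the 6 libraries, chosen after seeing the data, tested 11026 genes and passed 1609, 53.2% of them higher, against 47.4% with the filter used and 54.2% with none. The other alternatives kept both counts within 1.5 times. At an effective depth of 2340000 to 3240000 reads a library, rows with a few reads, such as single microRNA rows, carry large counting error that *P* does not show.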

Other observations

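Hypertrophic replicate 1 had a group of genes of its own. Among the genes tested, 43 were at least 2-fold higher in it than in each of the other 5 libraries, and 39 of these were also above all 3 proliferative libraries, whereas 255 genes were at least 2-fold higher in both replicates 2 and 3 than in the other 4. The genes given here were chosen after their values were seen. *Sgms2*, a sphingomyelin synthase, was at 10.6 to 14.2 NRPKM in resting, 135 to 192 in proliferative, 368 in hypertrophic replicate 1 and 144 and 176.9 in replicates 2 and 3. *Serinc5*, a membrane protein, was at 8.13 to 11.1 NRPKM in resting, 125 in replicate 1 and 24.5 and 27.2 in replicates 2 and 3. The growth factor gene *Pdgfa* was at 4.03 to 12.2 NRPKM in resting, 87.4 in replicate 1 and 29.9 and 21.8 in replicates 2 and 3. *Ihh* was one of the 43 genes.

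Of the genes that reached 5 NRPKM in replicates 2 and 3 alone, the metalloreductase gene *Steap4* was at 0.818 NRPKM in replicate 1 and 124 and 126 in replicates 2 and 3. The myeloid receptor subunit *Fcer1g* was at 3.50 NRPKM in replicate 1 and 91.3 and 67.2 in replicates 2 and 3, and the myeloid transcription factor *Spi1* at 0.964 in replicate 1 and 48.7 and 50.2 in replicates 2 and 3. *Fam20c*, the kinase of secreted bone proteins, was at 1.82 to 4.47 NRPKM in resting, 4.12 in replicate 1 and 37.2 and 54.1 in replicates 2 and 3. The Notch target *Hey1* was at 0.944 to 1.77 NRPKM in resting, 3.69 in replicate 1 and 41.0 and 42.4 in replicates 2 and 3.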
